A study of Sus scrofa with 10 samples.

Results

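The heart library of 60-day-old Northeast Min pigs was compared with 6 non-muscle tissues of the same breed and age: liver, spleen, lung, kidney, subcutaneous adipose tissue and ovary. These are 7 of the 10 RNA-seq libraries of the series. The other libraries came from psoas major and longissimus dorsi, both skeletal muscles, and from a pool of tissues, and were left out of the comparison. Each tissue was sequenced once as a piece of bulk tissue, and the labels name neither a chamber or region of the heart nor a genetic or drug treatment. The labels do not say whether the tissues came from the same animals. With 1 library per tissue there is no replicate error, so differences are given as sizes, without a p-value. Every gene was described by its level in heart minus the highest level among the 6 other tissues, both as log2(FPKM + 1), where FPKM is a read density per length of transcript and per sequenced library. This difference could be formed for 15555 of the 25880 genes in the table, those at 1 FPKM or more in at least 1 of the 7 libraries.

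The heart is built mainly from cardiomyocytes, whose myosin thick filaments slide along actin thin filaments when calcium binds troponin. In each beat calcium enters through surface channels, triggers a larger release from the sarcoplasmic reticulum and is pumped back. The work is paid for by dense mitochondria that burn fat, lactate and ketones, and cells are coupled end to end at intercalated discs.

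The summed FPKM of the 7 libraries ran from 292495 in kidney to 337975 in liver, with 329329 in heart. The table holds no read counts, so the sequencing depth behind each value is not known from it. Exact zeros can be failed estimates here. Of the 13 mitochondrial protein genes, which every cell uses, 8 were listed at 0 in heart and 6 in all 7 libraries. Some gene models span a neighbour, and this is stated where such a model is named.

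The heart library was described by 5 marker genes, chosen with earlier results of these data known. Cardiac troponin T, TNNT2 (chromosome 10, 23749528 to 23756374 on Sscrofa11.1), had 9493 FPKM in heart and at most 0.245 in the other 6 tissues. The thin filament inhibitor TNNI3 had 2045 FPKM in heart against 0.379 to 9.32 elsewhere, and the myosin-binding protein MYBPC3 had 1086 against 0 to 12.7, the top value of both in ovary. The cardiac transcription factor TBX20 stood at 19.3 FPKM in heart and at 0.145 or less elsewhere. The peptide hormone gene CCK had 253 FPKM in heart and at most 0.133 in the others. All 5 markers were highest in the library labelled heart, which, given how they were chosen, is no independent check of the label. In bulk tissue, fewer cells of a type and less RNA per cell cannot be told apart, and this applies to every difference that follows.

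In heart, 233 genes (1.5% of those tested) stood at least 2 above the highest of the other tissues on the log2 scale, a 4-fold difference in FPKM + 1. They were led by sarcomere genes, and 95 of them reached 100 FPKM or more in heart. Their levels in heart ran from 3.39 to 9656 FPKM with a median of 59.9, and 73 were under 1 FPKM in all 6 other tissues. The difference was between 2 and 3 for 105 genes and at least 5 for 45. Over all tested genes the median difference was -1.40, and heart was the highest of the 7 libraries for 1374 genes (8.83%). In the opposite direction 15 genes (0.0964%) stood at least 2 below the lowest of the other tissues.

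The 233 genes held 30.5% of the summed FPKM of the heart library. The 8 genes above 1% each, TNNC1, TNNT2, MYL3, GAPDH, the MYH6 model, MYL2, ACTA1 and ACTC1, held 15.3% between them. By the same rule liver had 277 genes holding 46.9% of its library, whereas the 329 genes of ovary held 3.12%. Kidney had 218 such genes, lung 164, spleen 122 and adipose tissue 89. The tissue with the next highest level was ovary for 52 of the heart genes, kidney for 48, spleen for 41, lung and adipose tissue for 36 each and liver for 20.

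Close to the threshold, PRKAA2, a catalytic subunit of the AMP-activated kinase, NDUFA11 and NDUFS8, both complex I subunits, were the nearest inside, with differences of 2.002, 2.003 and 2.005. The NDUFS8 model also spans ALDH3B1, and the ECSIT model spans ZNF653. MTUS2, ECSIT and NDUFB3 were the nearest outside, at 1.996, 1.999 and 1.999. The levels of NDUFB3 (178 FPKM in heart, 43.8 in kidney) and NDUFA11 (189.7 and 46.6) show how little separates the sides.

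**Figure D1:**
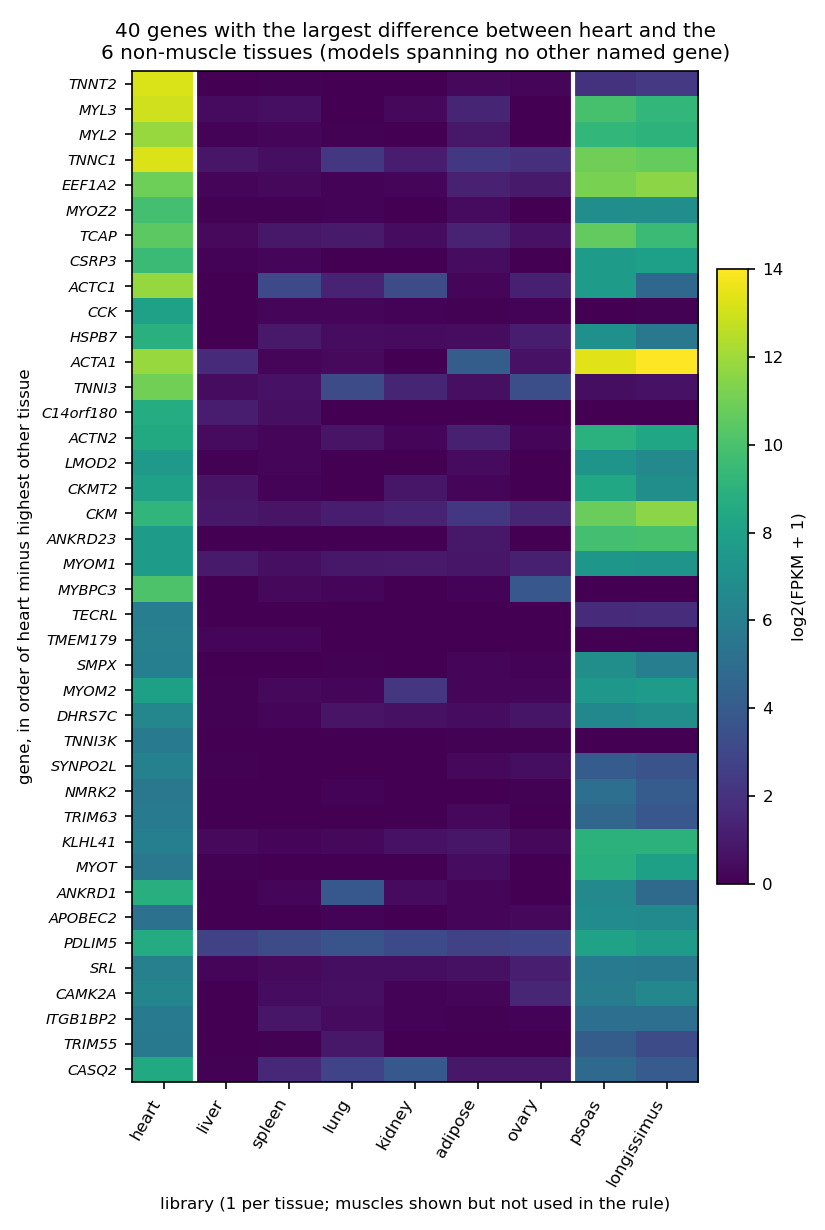
Levels, as log2(FPKM + 1), of the 40 named genes with the largest difference between heart and the highest of the 6 non-muscle tissues, among gene models that span no other named gene, with 1 column per library. The heart column is brighter than the 6 columns beside it in every row. The psoas and longissimus columns are also brighter than those 6 for most genes. They are dark for TNNT2, CCK, TNNI3, MYBPC3, C14orf180, TMEM179, TNNI3K and TECRL.

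Genes of the thick filament and of the M-band that ties its middle were the most uniformly high group. Of 12 tested members, 11 were highest in heart and 11 passed the threshold, with a median difference of 5.17 against -1.40 over all tested genes. The ventricular light chains led the group. MYL3, the essential light chain, had 8244 FPKM in heart and 0.315 in liver, 0.515 in spleen, 0 in lung, 0.219 in kidney, 1.73 in adipose tissue and 0 in ovary. MYL2, the regulatory light chain, had 3664 FPKM in heart and at most 0.843 elsewhere. In both genes the 6 other libraries lay near 0, and the highest of them was adipose tissue.

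The heavy chain could not be split by isoform. The model named MYH6 (chromosome 7, 75650847 to 75704483, plus strand) spans the RefSeq gene MYH7 as well, so its 5613 FPKM can include both the alpha and the beta heavy chain. A short unnamed model inside MYH7 on the opposite strand had 1628 FPKM in heart and at most 0.612 elsewhere. Another on that strand, inside LOC100736765, which the MYH6 model also spans, had 680 in heart and at most 0.333 elsewhere. The M-band proteins MYOM1 (202 FPKM in heart), MYOM2 (245) and MYOM3 (36.4, in a model that also spans IL22RA1) stood 4.62 to 6.44 above the next tissue. MYLK3, the cardiac kinase of the regulatory light chain, had 23.7 FPKM in heart and 0.211 or less in the other 6. The exception was MYBPHL, a myosin-binding protein of the atria and conduction system, with 0.00327 FPKM in heart and 1.85 in kidney.

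Of 15 tested thin filament genes, 13 were highest in heart and 11 passed the threshold, with a median difference of 3.72. The calcium sensor TNNC1 had 9656 FPKM in heart, the highest value of the library, and 0.438 to 3.90 in the others. TNNT2 showed the largest difference of all tested genes, 12.90. Cardiac actin, ACTC1, had 3517 FPKM in heart, 8.50 in kidney, 7.39 in spleen and 1.4995 or less in the remaining 4 tissues. Skeletal actin, ACTA1, reached nearly the same level in heart, 3653 FPKM, with 16.4 in adipose tissue and 2.30 or less in the other 5.

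Genes that cap and measure the thin filament differed among themselves. LMOD2, which lengthens the filament, had 191 FPKM in heart and at most 0.335 elsewhere, whereas LMOD3 had 0.356 in heart and 7.94 in ovary. NEBL, the short cardiac relative of nebulin, had 387 FPKM in heart and 11.5 in lung, the next highest. NEB itself, the nebulin gene of skeletal muscle, had 1.25 in heart and 1.19 in ovary. The tropomyosins were broader: TPM1 had 1761 FPKM in heart but also 133 in spleen and 123 in lung, which left a difference of 3.72. The slow skeletal troponins TNNT1 (44.9 FPKM in heart) and TNNI1 (8.05) also passed, at 3.30 and 2.57.

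At the Z-disc, which anchors thin filaments and senses stretch, 16 of 21 tested genes passed and 19 were highest in heart, with a median difference of 4.60. MYOZ2, a calcineurin-binding Z-disc protein, had 910 FPKM in heart and at most 0.308 elsewhere. TCAP, the titin cap, had 1431 against 0.291 to 1.53, and CSRP3, the muscle LIM protein, had 757 against at most 0.3698. These 3 genes were all above 9 in difference and were nearly silent in the other 6 libraries. The cardiac ankyrin repeat gene ANKRD1 had 455 FPKM in heart and 13.3 in lung, but 0.336 or less in the other 5.

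Several Z-disc genes were also present in tissues with smooth muscle. DES, the intermediate filament of all muscle, had 935 FPKM in heart, 94.5 in spleen, 29.2 in lung and 22.7 in ovary. FHL2, in a model that also spans C3H2orf49, had 198 FPKM in heart and 55.6 in spleen and stayed under the threshold at 1.82. FHOD3, a formin that builds cardiac sarcomeres, had 70.1 in heart against 15.1 in kidney and 13.9 in ovary. PDLIM3 had 3.33 FPKM in heart and 29.9 in spleen, and MYOZ1, the fast-fibre relative of MYOZ2, had 0.581 in heart.

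Parts of giant genes appeared only as fragments. The titin gene TTN was not matched to a model, but 3 unnamed models inside it had 304, 23.1 and 5.01 FPKM in heart. LDB3, which encodes the Z-disc protein ZASP, was covered by 2 unnamed models at 612 and 119.9 FPKM, and neither passed 1 FPKM in any of the 6 other tissues.

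Chaperones and ubiquitin ligases that maintain the sarcomere passed in 11 of 14 tested cases, with a median difference of 3.40. HSPB7, a small heat shock protein of cardiac muscle, had 476 FPKM in heart and 1.18 or less elsewhere. The CRYAB model, which also spans HSPB2, had 762 in heart and 80.2 in kidney. The ligases TRIM63 (51.6 FPKM in heart), TRIM55 (49.4) and TRIM54 (23.4, in a model that also spans DNAJC5G and UCN), which mark muscle proteins for breakdown, stayed under 1 FPKM in all 6 other tissues. The myosin chaperone UNC45B had 24.5 in heart against 1.16 in spleen. By contrast BAG3 had 14.3 FPKM in heart and 28.3 in kidney, and FBXO32 had 20.01 in heart and 19.0 in ovary.

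**Figure D2:**
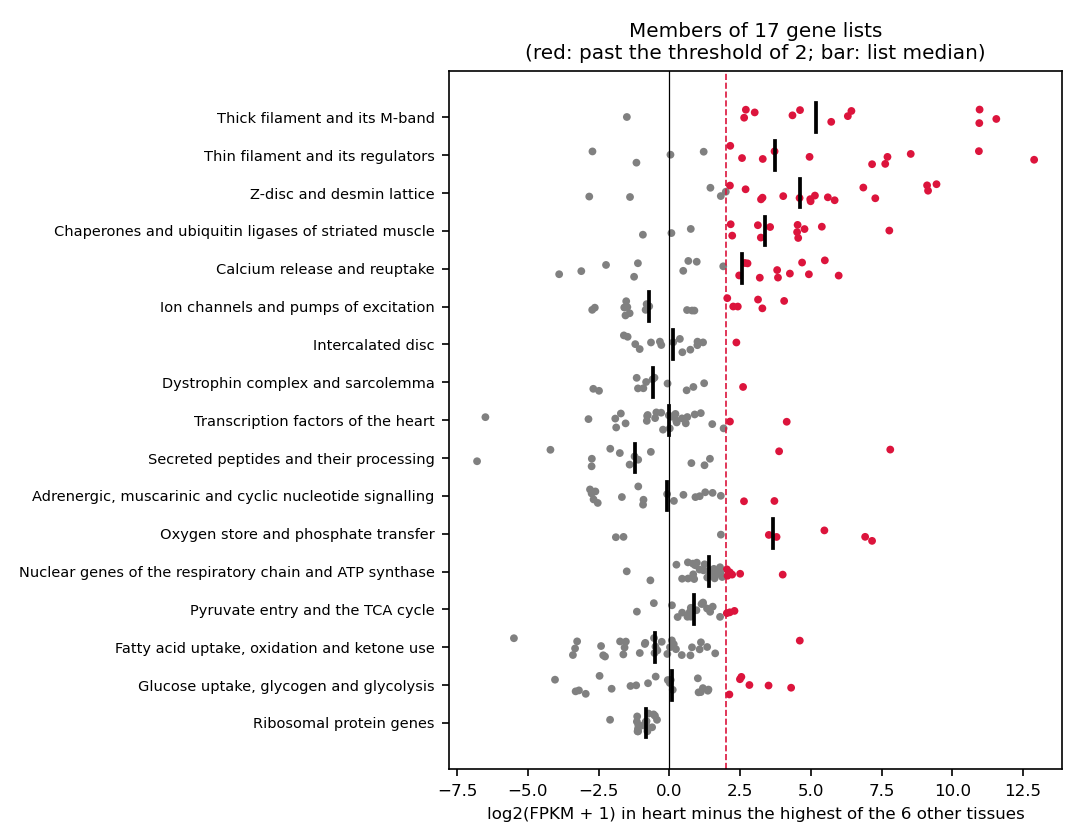
Heart minus the highest of the 6 other tissues on the log2(FPKM + 1) scale for the tested members of 17 gene lists, 1 point per gene, with red points at 2 or more and a black bar at the list median. The filament, Z-disc, chaperone and calcium lists and the list of oxygen store and phosphate transfer have medians above 2. The respiratory chain lies in a band around 1.38. The 18 ribosomal protein genes lie below 0 as deposited, with 3 above 0 after median-of-ratios scaling.

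Genes of calcium release and reuptake passed in 11 of 20 tested cases, and 15 were highest in heart, with a median difference of 2.57. The release channel RYR2 had 85.1 FPKM in heart, 3.49 in kidney, 2.81 in lung and 1.10 or less in the other 4. The pump ATP2A2, which refills the store, had 518 FPKM in heart but was present everywhere, from 10.5 in adipose tissue to 36.0 in lung. CASQ2, the calcium buffer of the cardiac store, had 367 in heart and 13.3 in kidney. The pump was thus common to all 7 libraries, whereas RYR2 and CASQ2 were under 1 FPKM in several of them.

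Other members of the calcium group followed with smaller levels. TECRL, an enzyme of the sarcoplasmic reticulum linked to inherited arrhythmia, had 63.2 FPKM in heart and at most 0.0138 in the other 6. JPH2, which holds the surface and reticulum membranes together, had 41.6 against 3.64 in ovary. The sodium-calcium exchanger SLC8A1 had 91.0 in heart and 13.5 in kidney, and the kinase CAMK2D had 345 in heart and 50.03 in lung. The HRC model had 143 FPKM in heart and also spans part of TRPM4. Sarcolipin, SLN, a pump inhibitor of atria and skeletal muscle, was listed at 0 in heart, and the fast muscle pump ATP2A1 had 0.467. S100A1, in a model that also spans CHTOP, had 43.4 FPKM in heart but 209 in adipose tissue and 138 in ovary.

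Ion channel genes were low in level and mixed in direction. Of 19 tested, 6 passed and 9 were highest in heart, with a median difference of -0.71 as deposited and 0.23 after quantile normalisation. The potassium channel partner KCNIP2 had 19.7 FPKM in heart and 1.12 in adipose tissue. KCNJ8, the pore of an ATP-sensitive channel, had 27.1 against 5.80 in lung, while ABCC9, its regulatory partner, had 35.5 in heart and 22.7 in lung and did not pass.

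All 3 Popeye domain genes, which encode cyclic AMP-binding membrane proteins, passed: POPDC2 (25.4 FPKM in heart), BVES (25.7) and POPDC3 (10.1). KCNQ1, the pore of the slow delayed rectifier, was at 27.3 FPKM in heart but at 82.1 in kidney. KCNE1, its small partner, was not in the list and was looked up after its values were seen: it had 37.7 FPKM in heart and 2.91 in spleen, the next highest. KCNJ5 had 23.4 in heart and 13.0 in ovary, and the pacemaker channel HCN4 had 0.0275 in heart.

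Cell junction genes were shared with other tissues. Of 15 tested genes of the intercalated disc, 8 were highest in heart and 1 passed, with a median difference of 0.14. That gene was PKP2, a desmosomal plakophilin, with 50.7 FPKM in heart, 9.01 in ovary and 5.20 in liver. The gap junction gene GJA1 had 156 FPKM in heart and 77.9 in ovary, and N-cadherin, CDH2, had 95.2 in heart and 47.5 in spleen. JUP, a plakoglobin, had 21.1 in heart and 66.6 in ovary. In the dystrophin complex 1 of 13 tested genes passed, DTNA at 31.8 FPKM against 4.39 in ovary. The sarcoglycan SGCB was at 30.1 in heart and 31.5 in adipose tissue, and the laminin receptor ITGA7 was at 63.5 and 138.

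Transcription factors stood at low levels, and most were shared. Of 28 tested, 14 were highest in heart and 2 passed. Their median difference was -0.0029 as deposited and 0.57 after median-of-ratios scaling, under which 20 were highest in heart. TBX20 passed at 4.15 and NKX2-5 at 2.14. NKX2-5, the homeobox factor of heart formation, had 15.9 FPKM in heart, 2.82 in spleen and 0 in the other 5 tissues. IRX4, a ventricular factor, had 4.01 in heart and 0.327 in spleen, and HAND1 had 1.92 and 0.0218, both short of the threshold at 1.92 and 1.52.

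The factors that act beside them in the heart were also found elsewhere. GATA4 had 22.0 FPKM in heart and 21.2 in ovary, values too close to order without replicates, with 6.32 in liver and 0.076 or less in the other 4. GATA6 had 27.3 in heart and 22.7 in ovary. TBX5 had 20.2 in heart and 24.9 in lung. HOPX, a homeodomain protein first known from the heart, had 1.90 FPKM in heart and 262 in lung. ESRRA, a nuclear receptor of mitochondrial genes, had 56.8 in heart, 25.8 in kidney and 25.6 in liver.

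Among 15 tested secreted peptides and their processing enzymes, 2 passed: CCK and NPPB. NPPB, which encodes B-type natriuretic peptide, had 21.5 FPKM in heart, 0.529 in lung and 0 in the other 5. For the atrial peptide gene NPPA only an unnamed fragment on chromosome 6 was found, at 47.9 FPKM in heart and 0 in all 6 others. CORIN, the protease that activates natriuretic peptides, had 14.5 in heart, 5.55 in ovary and 3.24 in liver. CCK, known mostly as a gut and brain hormone, had the highest level of the list in heart, at 253 FPKM. FGF21, NRG1 and BMP10 were listed at 0 in heart.

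Of 19 tested genes of adrenergic, muscarinic and cyclic nucleotide signalling, 2 passed. PDE3A, a phosphodiesterase that limits cyclic AMP, had 43.7 FPKM in heart and 6.18 in adipose tissue. PPP1R3C, which targets a phosphatase to glycogen, had 109 against 7.39 in ovary. ADCY6, an adenylyl cyclase, had 135 in heart and 37.6 in kidney, a difference of 1.82. CHRM2, the muscarinic receptor that slows the heart, had 8.38 FPKM in heart and 2.90 in lung. The list median was -0.081 as deposited and 0.47 after median-of-ratios scaling.

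In the list of oxygen store and phosphate transfer genes, 5 of 8 tested genes passed, with a median difference of 3.65. Not all of the 5 move high-energy phosphate, NMRK2 being among them. The muscle creatine kinase CKM had 588 FPKM in heart and at most 3.85 elsewhere, and its mitochondrial partner CKMT2 had 261 against at most 0.827. A short unnamed model inside CKM had 1696 in heart and at most 7.07 elsewhere. SLC25A4, the ADP/ATP carrier of heart and muscle, had 874 in heart and 75.5 in liver. NMRK2, a muscle enzyme of NAD synthesis, had 48.5 against 0.108 or less. The brain-type kinase CKB was the reverse, at 18.7 in heart and 72.1 in kidney, as was the creatine transporter SLC6A8, at 28.3 and 89.3.

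Nuclear genes of the respiratory chain and ATP synthase were shifted together by a small amount. Of 31 tested, 29 were highest in heart but 6 passed the threshold, with a median difference of 1.38. The count past the threshold was 3 with libraries scaled to equal sums, 2 after quantile normalisation and 10 with median-of-ratios factors, while 29 were highest in heart in each. With kidney left out of the 6 tissues it was 14. NDUFA4 had 1921 FPKM in heart, 338 in kidney, 202 in liver and 106 to 149 in the other 4. COX4I1 had 1095 in heart and 157 to 267 in the others, and COX5A had 807 against 74.0 to 173. Kidney was the next highest tissue for all 3.

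The same shift was seen when subunits were collected by symbol, a grouping made after the values were seen. All 37 genes with symbols of complex I subunits were highest in heart, with a median difference of 1.51 and 7 past the threshold. Their summed FPKM was 3.34 times that of kidney. They include NDUFA4, now assigned to complex IV, which passed and held 1921 of their 8698 summed FPKM in heart. Values without NDUFA4 were not computed. All 10 ATP synthase subunits (median 1.46, summed ratio 3.21) were highest in heart, also under each of the 3 other scalings. Complex III had 7 of 7 highest as deposited and 6 of 7 with equal sums, with a median of 1.24. Complex IV had 11 of 16, with a median of 1.12. The 16 include alternative isoforms such as COX6A2 and COX6A1, whose model also spans GATC and TRIAP1. Their count is therefore not directly comparable with that of complex I. Complex II had 3 of 4, with a median of 0.35 and a summed ratio of 1.34. Of the mitochondrial ribosomal proteins, 39 of 72 were highest in heart, at a median of 0.031, and 30 of 72 at -0.076 with equal sums.

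Of 22 tested genes of pyruvate entry and the TCA cycle, 20 were highest in heart and 3 passed, or 5 with kidney left out, with a median difference of 0.86. The 3 were GOT1 (332 FPKM in heart, 66.5 in kidney), GOT2 (273 and 66.1) and MDH2 (459 and 104 in liver), which together carry reducing equivalents between cytosol and mitochondria. Citrate synthase, CS, had 185 in heart and 109 in adipose tissue. IDH3A, a subunit of isocitrate dehydrogenase, had 83.0 in heart and 23.3 in ovary.

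Fat oxidation was shared with kidney, liver and adipose tissue. Of 32 tested genes, 12 were highest in heart and 1 passed, with a median difference of -0.51. With adipose tissue left out 3 passed, and with liver or kidney left out 2 passed. CPT1B, the muscle form of the enzyme that admits fatty acids to mitochondria, had 155 FPKM in heart, 5.403 in kidney, 4.97 in spleen, 4.31 in adipose tissue and 1.97 or less in the other 3. HADHB, of the trifunctional protein, had 513 in heart, 166 in kidney and 150 in adipose tissue. Uptake genes were higher in adipose tissue than in heart: LPL had 896 there and 167 in heart, and CD36 had 554 and 184. FABP3, the heart-type fatty acid carrier, had 288 in heart and 258 in adipose tissue.

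Glucose genes divided by isoform. Of 26 tested, 15 were highest in heart and 6 passed, at a median of 0.083 as deposited and -0.058 with equal sums. GAPDH had 6586 FPKM in heart and 339 to 926 elsewhere, and ALDOA had 1397 against 40.3 to 239. PFKM, the muscle phosphofructokinase, had 339 in heart and 28.9 in ovary. PYGB, the brain-type glycogen phosphorylase, had 177 in heart and 39.99 in ovary, above the 37.6 FPKM of the muscle type PYGM in heart. HK1 had 118 and SLC2A4, the insulin-regulated transporter, 29.7, and both stayed under the threshold. LDHB had 1062 in heart and 1028 in adipose tissue.

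Pairs of genes that encode alternative forms of a protein, picked after the values were seen, showed this most directly. SLC25A4 made up 97.6% of the FPKM of SLC25A4 and SLC25A5 in heart and 10.4% to 59.9% in the other 6 tissues. CPT1B made up 94.1% of its pair with CPT1A in heart and at most 16.96% elsewhere. COX6A2 made up 82.6% of its pair with COX6A1, whose model also spans GATC and TRIAP1, against at most 13.7%, while COX7A1 reached 46.8% of its pair against 29.5% in adipose tissue. RPL3L, a muscle version of the ribosomal protein RPL3, made up 65.8% of the pair in heart and 0.0936% to 5.67% elsewhere. The lactate dehydrogenase pair differed from these: LDHB held 96.5% in heart and 96.8% in adipose tissue, and 6.78% and 3.40% in psoas and longissimus.

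**Figure D3:**
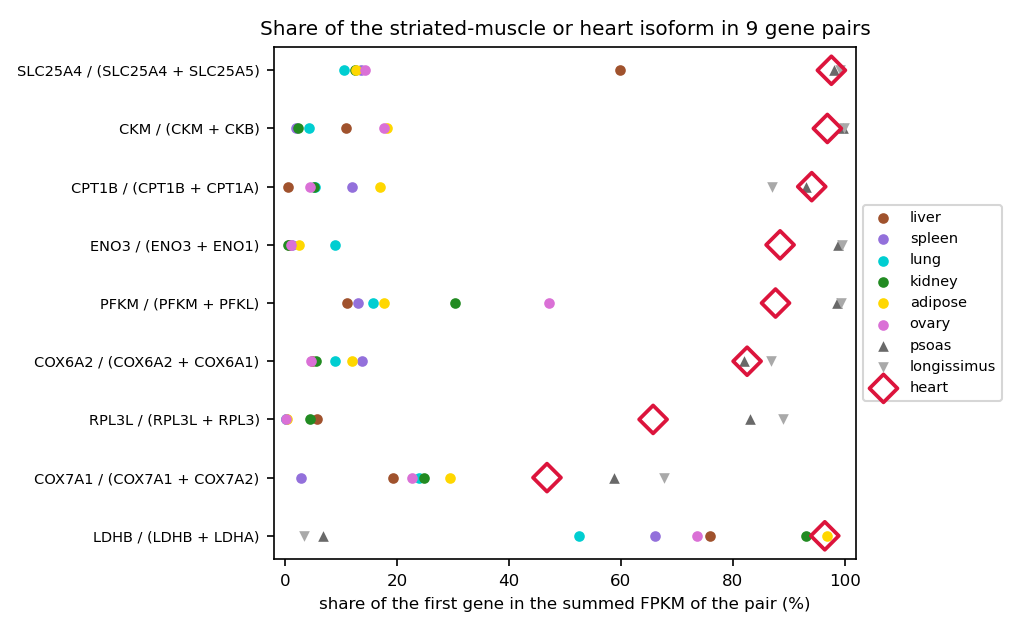
Share of the first gene in the summed FPKM of 9 gene pairs, with 1 symbol per library: red diamonds for heart, circles for the 6 non-muscle tissues and triangles for the skeletal muscles. In 8 pairs the heart lies to the right of all 6 circles, on the side of the triangles, whereas for LDHB the heart lies beside adipose tissue and far from both muscles.

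The chamber is not labelled, and genes of both chamber types were present. Of 4 tested ventricular genes, MYL2 and MYL3 passed, IRX4 fell short at 1.92, and HEY2 had 9.59 FPKM in heart and 17.3 in ovary. Of 6 tested atrial genes, 1 passed: MYL4, the atrial essential light chain, had 10.6 FPKM in heart and at most 0.782 elsewhere, while SLN, BMP10 and KCNJ3 were listed at 0 in heart. None of 8 conduction system genes was highest in heart, and their highest value was 1.77 FPKM, for TBX3.

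Outside the gene lists 138 genes passed the threshold, 108 of them named. EEF1A2, the elongation factor form of muscle and neurons, had 1942 FPKM in heart and 0.1 to 1.41 elsewhere. With a difference of 9.65 it was among the 6 named genes with the largest. C14orf180, a gene known from adipose and cardiac tissue in other species, had 406 FPKM in heart, 1.13 in liver and was listed at 0 in adipose tissue. TMEM179 had 67.8 in heart and 0.190 or less elsewhere, and TNNI3K, a kinase that binds cardiac troponin I, had 50.7 against at most 0.0455. DHRS7C, a dehydrogenase of the sarcoplasmic reticulum, had 88.4 against 0.749.

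No marker list of another cell type had its highest summed level in heart. None of 10 endothelial genes was highest there as deposited, though 2 were after median-of-ratios scaling. PECAM1 had 69.9 FPKM in heart, 168 in adipose tissue and 160 in lung, and the summed level of the list was 306 in heart within a range of 103 to 699 in the others. The 12 fibroblast genes summed to 1757 FPKM in heart against 15846 in adipose tissue and 732 to 7526 in the other 5. The 11 macrophage genes summed to 153.5 against 3545 in spleen, and the 10 lymphocyte genes to 12.3 against 1576. The blood gene HBB was at 566 FPKM in heart, 3102 in spleen and 1104 in lung.

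Fat and liver markers were near their floor with a few exceptions. ADIPOQ had 1.53 FPKM in heart and 2074 in adipose tissue, PLIN1 had 0.750 and 907, and FABP4 had 201 and 4919. ALB had 0.445 in heart and 30453 in liver. All 10 fast skeletal muscle markers were under 1 FPKM in heart and summed to 1.56 there, against 32.9 in adipose tissue, the tissue with the next highest ACTA1, CKM, MYL2 and MYL3. The part of this skeletal muscle signal in the adipose values of those genes was not tested. The smooth muscle list had 1 gene past the threshold, DES, while MYH11 had 7.17 FPKM in heart and 91.3 to 128 in lung, ovary and spleen.

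Only 15 genes stood at least 2 below the lowest of the 6 other tissues, and leaving out liver gave 23, spleen 34, adipose tissue 35 and ovary 24. ANPEP, a membrane aminopeptidase, was the lowest of them relative to the rest, with 0.202 FPKM in heart and 10.2 in lung, 12.1 in spleen, 13.7 in ovary, 36.9 in adipose tissue, 74.6 in liver and 314 in kidney. The complement gene C4A had 0.944 in heart and 13.6 to 399 elsewhere. RHOG, a small GTPase, had 0.0652 against 5.99 to 78.9. The mitochondrial aldehyde dehydrogenase ALDH2 had 2.33 FPKM in heart and 17.4 to 408 in the others, and 41.3 and 46.9 in psoas and longissimus.

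Genes of redox and stress handling were also among the 15. PRDX5, a peroxiredoxin, had 14.9 FPKM in heart against 66.8 to 218, and HMOX1, which breaks down haem, had 1.60 against 9.92 to 191. The metallothionein MT1X, in a model that also spans MT-2B, had 2.52 against 20.1 to 298. TKT, of the pentose phosphate pathway, had 7.27 against 34.3 to 151. For 11 of the 15 genes both skeletal muscles also lay below the lowest of the 6 tissues, as they did for 3612 of all tested genes (23.2%).

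The skeletal muscles, which the rule left out, divided the 233 genes. For 177 of them (76.0%) both muscles were above the highest of the 6 non-muscle tissues, as they were for 789 of all tested genes (5.07%). Heart was within 2 of both muscles on the log2 scale for 132 genes (56.7%) and at least 2 above both for 70 (30.0%), while 12 genes stood at least 2 below both and 19 gave mixed results. Over all tested genes heart was at least 2 above both muscles for 336 (2.16%). The shares of all tested genes in the other classes were not computed. The 56.7% therefore cannot be read as a trait particular to these genes. The 70 genes held 16.1% of the heart library. Of all 233 genes, 38 were under 1 FPKM in both muscles, against 5124 of all tested genes (32.9%).

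Genes above both muscles included the cardiac forms of the filament proteins and calcium genes. TNNI3 had 2045 FPKM in heart, 0.408 in psoas and 0.636 in longissimus, and MYBPC3 had 1086, 0.00992 and 0.00875. TNNT2 had 3.07 in psoas and 3.96 in longissimus. RYR2 had 85.1 in heart, 0.0637 and 0.0402, and NEBL had 387, 0.707 and 0.703. MYL3 was less exclusive, with 961 and 606 FPKM in the muscles, as was TNNC1 with 2023 and 1661.

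Genes near the muscle level included EEF1A2 (1942 FPKM in heart, 2284 in psoas, 3058 in longissimus), TCAP (1431, 1581 and 732) and CKMT2 (261, 322 and 120.3). ACTA1 had 10454 and 20549 FPKM in the muscles. The genes at least 2 below both muscles were ANKRD23, KLHL41, MYOT, ENO3, TRDN, TNNT1, TNNI1, ALDOA, ADSS1, PYGM, CASQ1 and TPM2. PYGM had 37.6 FPKM in heart, 1432 in psoas and 3994 in longissimus, and the slow fibre troponin TNNI1 had 8.05, 528 and 414. The ENO3 model, which also spans part of SPAG7, had 389, 5645 and 10825.

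**Figure D4:**
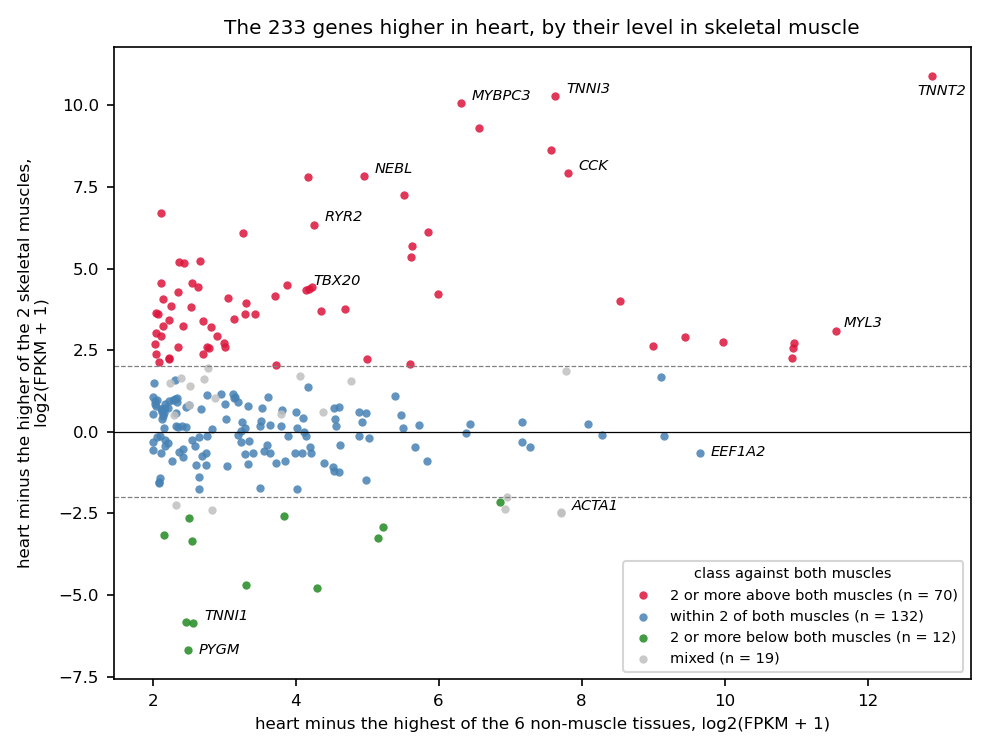
The 233 genes plotted by heart minus the highest of the 6 non-muscle tissues (horizontal) and heart minus the higher skeletal muscle (vertical), both on the log2(FPKM + 1) scale, coloured by class against both muscles. TNNT2, TNNI3, MYBPC3 and CCK lie near the top among 70 red genes, 132 blue genes lie within 2 of both muscles, and TNNI1 and PYGM lie at the bottom among 12 green genes.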

How the data were processed

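RNA abundance was measured in 7 tissues of 60-day-old Northeast Min pigs, 1 library each. Per the labels, TRIzol was used for extraction and a TruSeq RNA kit for library construction. The submitters' processing notes list StringTie 1.2.2 beside TopHat2 2.1.0, with Sscrofa11.1 as the assembly. Annotation release, strandedness and filters, not given in the sources used here, decide which reads a gene's value holds. The authors deposited 1 value per gene and library, read here as FPKM because the values are not whole numbers and StringTie is named. The file header names no unit, so another unit scaled within each library cannot be told apart from FPKM.

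Levels were compared as log2(FPKM + 1), with a pseudocount of 1, a threshold of 2 and a minimum of 1 FPKM, in heart for higher genes and in the lowest of the other 6 tissues for lower genes. No test across tissues was possible with 1 library each, so no count model was run, and precision is not known from the files. Symbols were taken from Ensembl identifiers for 14857 genes and then from RefSeq genes that overlapped reciprocally by at least 0.5 (1714 genes), which named 64.0% of 25880 genes. Of 12553 genes named both ways, 95.1% of names were equal. Among models sharing a symbol, the most abundant on average was kept, and 513 of 545 list genes were matched.

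The comparison, the members, the 36 gene lists, of which 11 lead the comparison, and the marker lists were chosen with earlier results of these data known. The text names members of these lists, the 40 named genes with the largest difference at 5 FPKM or more in heart, the 15 most abundant in heart, the 15 most negative with all other tissues at 5 or more, the 20 that also stood 2 or more above both muscles, and 3 on each side of the threshold. Other genes, gene families by symbol and isoform pairs were chosen after their values were seen. Alternatives varied the pseudocount, filter, threshold, scaling, reference tissue and tissues included. The procedure was tested on simulated data. Calculations used Python 3.11.15, numpy 2.4.6, pandas 2.3.3 and matplotlib 3.10.9. Some genes that the rule would name are not reported here.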

Additional observations from a re-analysis of the deposited data

How the results depend on the processing

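No paired analysis was possible because each tissue had 1 library and no number links them. The counts were 233 genes higher in heart, 15 lower and 75 list genes higher in the 11 leading lists. A pseudocount of 0.1 gave 68 lower genes and one of 5 gave 1. A threshold of 1 gave 536 higher, 180 lower and 116 list genes, and a threshold of 3 gave 128 higher and 3 lower. Lower genes numbered 8 after median-of-ratios scaling and 8 after quantile normalisation, with 348 and 274 higher genes, of which 227 and 215 were among the 233. Median-of-ratios scaling moved the median difference of all tested genes from -1.40 to -0.97. Against the second highest or lowest tissue 377 were higher and 78 lower, and against the mean of the 6 tissues 543 were higher, 504 lower and 133 list genes higher. Leaving out liver gave 23 lower genes, spleen 34, adipose tissue 35 and ovary 24. Adding both skeletal muscles left 70 higher, 3 lower and 29 list genes. Higher genes made up 94.0% of all calls, 80.7% with a pseudocount of 0.1, 74.9% at a threshold of 1, 82.9% against the second tissue and 51.9% against the mean; with the 3 other scalings this share was 93.8% to 97.8%. Without the models that contain another named gene, an alternative chosen after seeing the data, 206 were higher and 11 lower. Over the 11 leading lists, 168 of 209 list counts stayed within 1.5 times and 41 did not. The cause of these shifts was not tested. The unknown depth limits the values near 1 FPKM most. The planned search for promoter motifs was not run.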

Other observations

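Heart-only expression among all 9 single tissues was rare. At 5 FPKM or more in heart and under 1 in each of the other 8 tissues, both skeletal muscles included, there were 14 genes, 12 of them named: CCK, TMEM179, TNNI3K, MYLK3, NPPB, SERPINB2, LNP1, TBX20, NRTN, RXFP1, MYL4 and ATP4B. They were selected after the values were seen. CCK was the highest at 253 FPKM, TMEM179 had 67.8 and TNNI3K 50.7, and the other named genes had 23.7 or less. RXFP1, the receptor of the hormone relaxin, had 11.4 FPKM in heart and 0.403 or less elsewhere. NRTN, which encodes neurturin, a relative of the glial growth factor GDNF, had 11.5 against 0.876 or less. SERPINB2, a plasminogen activator inhibitor, had 21.3 and at most 0.187, and ATP4B, a subunit of the gastric proton pump, had 8.47 and at most 0.757. The label of the library from pooled tissues does not name those tissues. In that library the 14 genes stood at 0 to 18.7% of their level in heart, with a median of 3.47%. CCK had the highest share, 47.2 FPKM in the pool or 18.7%, whereas TMEM179 had 0.890%.

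Several regulators outside the gene lists were high in heart. The splicing factors RBM20, which acts on titin, and RBM24 had 22.5 and 23.8 FPKM in heart and stayed under 1 FPKM in the 6 non-muscle tissues. 3 of the 4 CAMK2 genes passed: CAMK2A had 82.5 FPKM in heart and 1.83 in ovary, CAMK2B had 16.2 in heart, and CAMK2D is given above. Of 17 tested ASB genes, which encode substrate adaptors of ubiquitin ligases, 5 passed, among them ASB15 at 28.4 FPKM and ASB2 at 39.5. PCP4, a calmodulin regulator known from neurons, had 277 FPKM in heart, 14.5 in spleen and 0.137 and 0.241 in psoas and longissimus. FITM2, of lipid droplet formation, had 43.7 in heart, 3.16 in lung and 2.67 and 0.863 in the muscles.

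CLEC14A, an endothelial gene, had 19.9 FPKM in heart and 12.6 in psoas and was listed at 0 in the 6 non-muscle tissues, although PECAM1 was at 22.3 FPKM or more in each of them. It had 17.7 FPKM in the pool. The mitochondrial gene COX3 had 2031 FPKM in heart, 1059 in kidney, 505 in liver and 321 in adipose tissue, and was listed at 0 in spleen, lung and both skeletal muscles.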
